A study of Mus musculus with 5 samples.

Results

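The data described here are the H3K27ac peaks in and around 9 genes of stem cell self-renewal: Mecom, Hlf, Prdm16, Procr, Tek, Angpt1, Mmrn1, Hmga2 and Fgd5. The genes were chosen by name, with earlier results of these data known, and they are 9 of the 21883 protein-coding genes of the mouse gene table used. H3K27ac is the acetylation of lysine 27 of histone H3, a mark of active promoters and enhancers. It was measured by ChIPmentation, in which the transposase Tn5 inserts the sequencing adapters while the chromatin is still bound to the antibody. The cells were mouse bone marrow cells sorted as CD45.2+, lineage-negative, Sca1+ and Kit+, which the labels call HSC/MPP, that is, stem cells and multipotent progenitors. Their genotype is given as Mll3/4 deleted, for the 4 H3K27ac libraries and for the 1 input library alike. The labels name neither the Cre driver of the deletion, nor the age of the mice, nor whether animals were pooled.

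The authors deposited 1 list of 22948 peaks for the 4 libraries together. It has no value for a single library and no control genotype, so no spread between replicates, no test and no gain or loss can be given. A gene without a peak had no region that passed the authors' calling, which does not show that the mark was absent. The total depth is unknown. In a sorted bulk population, fewer cells that carry the mark and less of the mark per cell cannot be told apart.

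Long-term stem cells keep their number by dividing without differentiating, and they are held mostly at rest in the marrow. The genes studied here belong to 3 layers of that programme. Mecom and Prdm16 are related zinc finger proteins of the PRDM family, Hlf is a PAR bZIP transcription factor and Hmga2 is a DNA-bending chromatin protein of fetal stem cells. Tek is the receptor tyrosine kinase for angiopoietins and Angpt1 is its ligand. Procr, the protein C receptor, Mmrn1, a secreted multimerin, and Fgd5, an exchange factor for the GTPase Cdc42, are used to mark the most immature stem cells. Tek, Procr, Mmrn1 and Fgd5 are also genes of blood vessel endothelium.

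A peak was counted at an end of a gene when it overlapped the 1 kb on either side of either end. It was counted in the body when its summit lay inside the gene, and outside when its summit lay at most 100 kb from the gene. Peaks at an end were not counted again in the other classes. Of the 9 genes, 2 had a peak at an end, Angpt1 and Mmrn1, while 36.2% of all protein-coding genes had one. A peak in the body was found in 3 genes, Mecom, Mmrn1 and Hmga2, against 16.6% of all protein-coding genes. Of the 5 genes of at least 100 kb (Mecom, Prdm16, Tek, Angpt1 and Hmga2), 2 had a peak in the body, and 50.1% of all genes of that length did. Peaks outside the gene were found for 5 genes, Mecom, Hlf, Procr, Mmrn1 and Fgd5, against 72.1% of all genes.

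Prdm16 and Tek had no peak in any of the 3 classes, as did 23.1% of all protein-coding genes. The 7 others had 18 peaks together. Of these, 2 lay at an end of the gene itself, 7 at an end of another protein-coding gene, and 9 away from every protein-coding gene end. Peaks of the last kind are called distal here. Ends of non-coding genes and starts inside a gene did not count as ends. Distal peaks were found for 5 genes, Mecom, Procr, Mmrn1, Hmga2 and Fgd5, and 56.0% of all genes had at least 1. The median number of peaks over the 3 classes was 2 for the 9 genes and 3 for all protein-coding genes.

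**Figure D1:**
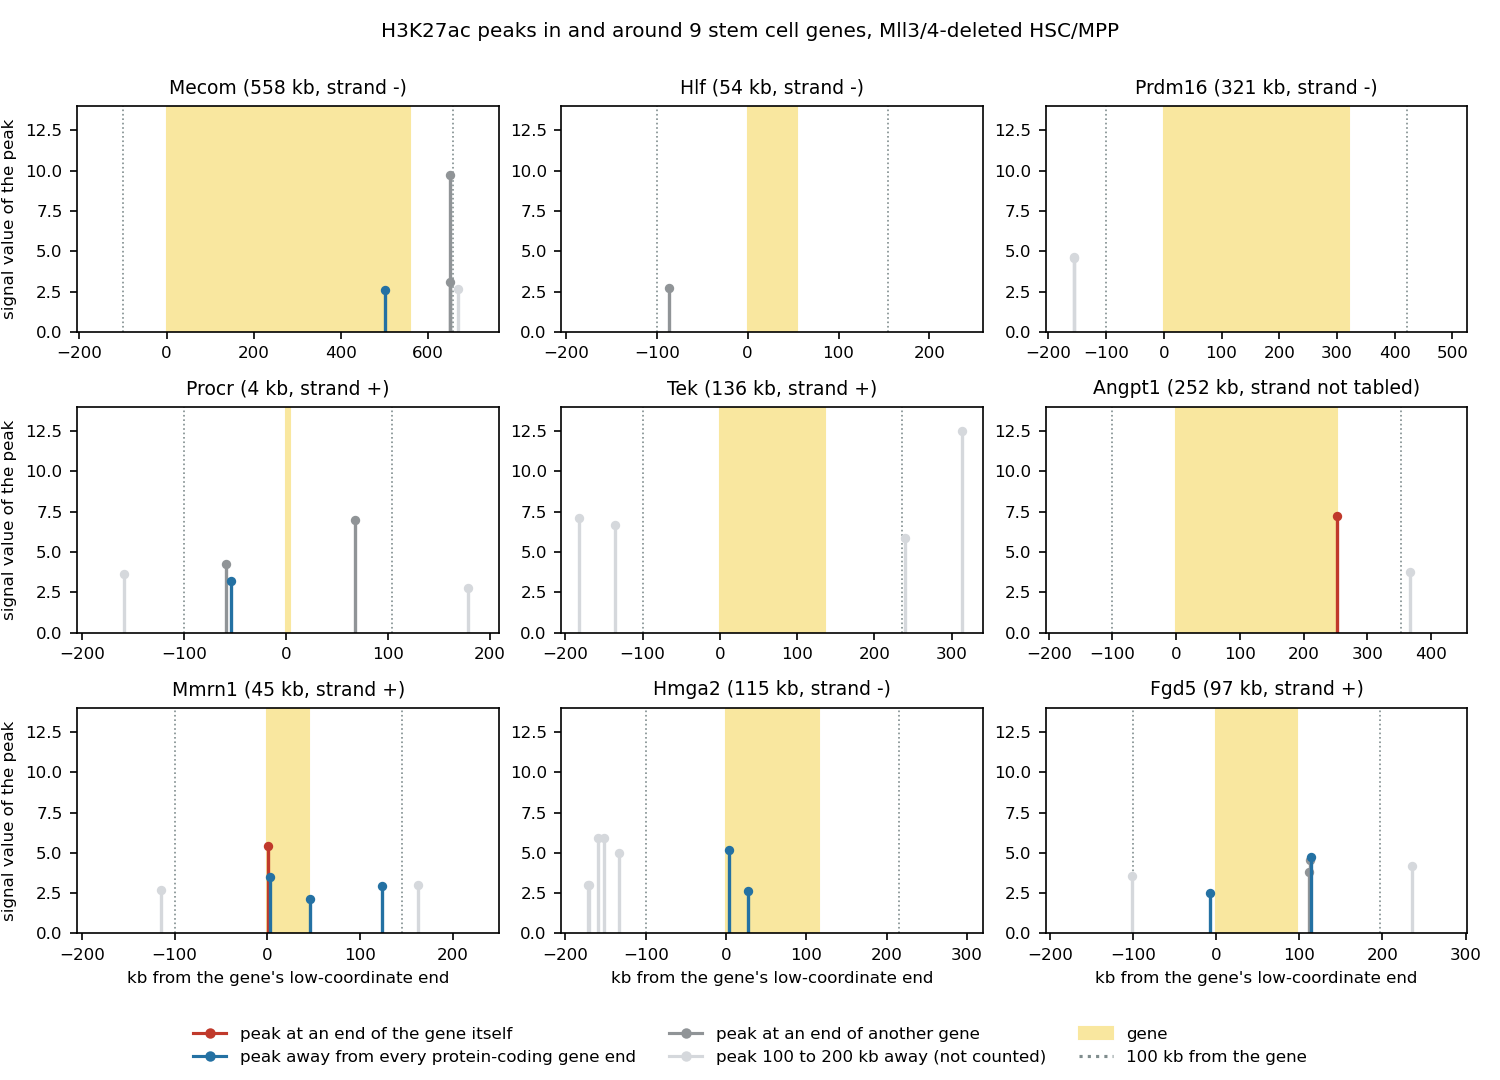
Each panel shows 1 gene (yellow) with its flanks of 200 kb. The x axis is the distance in kb from the gene's low-coordinate end, and each stem is a peak whose height is the authors' signal value. Prdm16 and Tek have no peak between the dotted lines, which mark 100 kb from the gene, and the peaks at ends of the gene itself are those of Angpt1 and Mmrn1.

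The starts of 8 of the 9 genes could be placed in the RefSeq promoter table, which gives 250 bases before and 50 bases after each start. Angpt1 has no entry there. Mecom has 2 entries, an upstream start at the gene's high end and an internal start 496.6 kb further along the gene. Of these 9 starts, only that of Mmrn1 had a peak within 1 kb, against 37.4% of the 21262 starts of protein-coding genes in the table. The sequences printed here, from RefSeq on GRCm38.p6, are shown 5′ to 3′ on the strand of the gene. The first 3 are shown because they contrast a start with a peak to starts without, and their capitals mark CpG dinucleotides. The first runs over chr6:60944067-60944366, plus strand, the second over chr4:94739039-94739338, plus strand, and the third over chr6:91978715-91979014, plus strand.
Mmrn1: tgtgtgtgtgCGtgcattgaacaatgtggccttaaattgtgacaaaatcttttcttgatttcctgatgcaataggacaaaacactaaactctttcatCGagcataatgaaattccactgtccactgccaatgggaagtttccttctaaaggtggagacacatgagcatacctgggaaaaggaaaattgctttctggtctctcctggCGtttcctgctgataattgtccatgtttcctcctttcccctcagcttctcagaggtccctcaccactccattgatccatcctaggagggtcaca
Tek: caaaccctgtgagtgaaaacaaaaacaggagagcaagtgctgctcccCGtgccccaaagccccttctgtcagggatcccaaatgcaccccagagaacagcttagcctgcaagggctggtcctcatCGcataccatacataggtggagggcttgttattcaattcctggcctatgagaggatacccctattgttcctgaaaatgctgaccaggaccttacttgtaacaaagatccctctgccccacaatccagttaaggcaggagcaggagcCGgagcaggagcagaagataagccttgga
Fgd5: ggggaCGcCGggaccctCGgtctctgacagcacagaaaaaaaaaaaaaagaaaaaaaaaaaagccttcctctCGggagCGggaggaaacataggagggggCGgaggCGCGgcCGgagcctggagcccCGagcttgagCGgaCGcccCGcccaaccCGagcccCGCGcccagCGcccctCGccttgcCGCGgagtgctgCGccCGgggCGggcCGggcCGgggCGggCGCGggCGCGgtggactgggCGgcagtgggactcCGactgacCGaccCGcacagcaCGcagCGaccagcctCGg

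Starts rich in CpG carried peaks more often across the genome. A peak lay within 1 kb of 6.40% of the 6035 starts with 0 to 4 CpG in their 300 bases. The share was 21.7% of 3161 starts with 5 to 9 CpG, 47.7% of 4426 starts with 10 to 19 and 62.5% of 7640 starts with 20 or more. Among the 9 tabled starts of the stem cell genes, the one with a peak was one of the poorest in CpG. Angpt1, which had a peak at its high-coordinate end, has no tabled start and is missing from this comparison. Mmrn1 had 3 CpG, as did Tek, whose nearest summit was 136.5 kb from the start. Fgd5 had 37 CpG, more than 92.7% of all starts in the table, Hlf had 30 and Prdm16 had 24, and none of these 3 had a peak within 1 kb. The starts of Procr (13 CpG), Hmga2 (12 CpG) and Mecom (19 upstream and 9 internal) had none either.

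**Figure D2:**
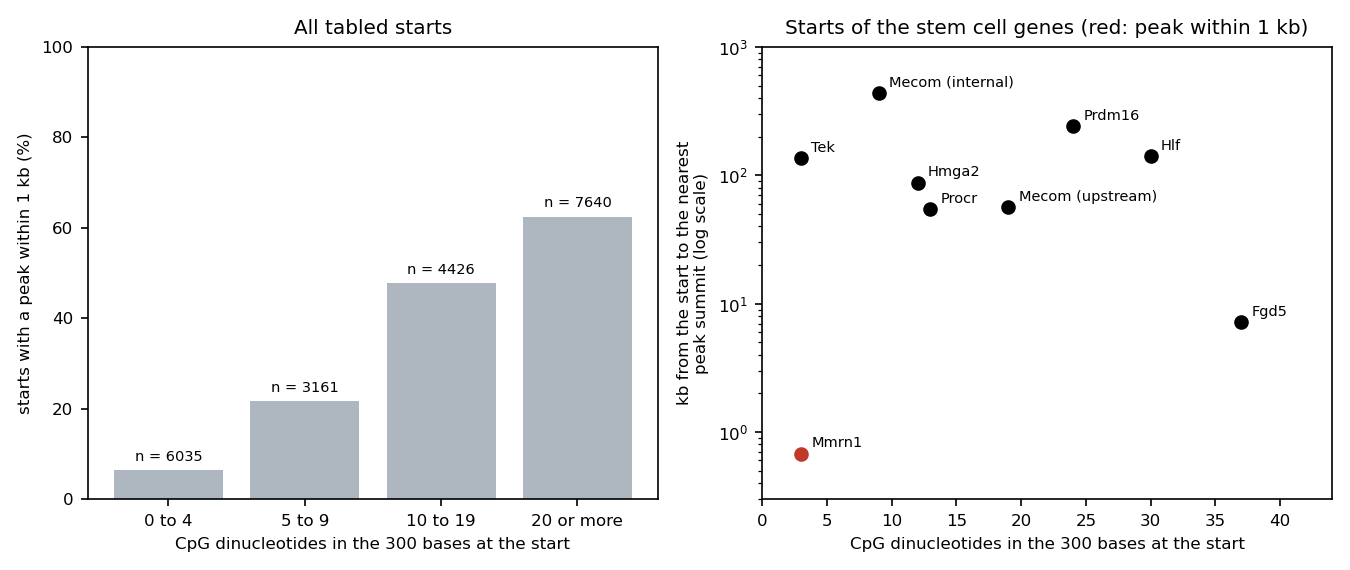
Left, the percentage of all RefSeq starts with a peak within 1 kb, by the number of CpG dinucleotides in the 300 bases at the start; it rises from 6.40% to 62.5%. Right, the 9 tabled starts of the stem cell genes. The x axis is the CpG number and the y axis the distance to the nearest summit in kb (log scale). Mmrn1 (red), with 3 CpG, is the tabled start with a peak within 1 kb, and Angpt1 has no tabled start.

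The starts of the 2 PRDM genes are shown because neither had a peak, and because they share a stretch of sequence. The upstream start of Mecom lies in chr3:30509710-30510009 and that of Prdm16 in chr4:154636824-154637123, both on the minus strand. The longest run of bases common to both is 24 bases long and is set in capitals. It begins 26 bases after the start base in Mecom, where it reaches the end of the window, and 9 bases after it in Prdm16. No other start among the 21262 holds it on either strand.
Mecom: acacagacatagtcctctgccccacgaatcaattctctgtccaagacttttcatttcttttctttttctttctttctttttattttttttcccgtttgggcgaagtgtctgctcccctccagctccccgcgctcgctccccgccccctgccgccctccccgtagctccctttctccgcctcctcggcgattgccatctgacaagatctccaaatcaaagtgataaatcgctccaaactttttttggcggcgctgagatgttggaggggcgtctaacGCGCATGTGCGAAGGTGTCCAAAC
Prdm16: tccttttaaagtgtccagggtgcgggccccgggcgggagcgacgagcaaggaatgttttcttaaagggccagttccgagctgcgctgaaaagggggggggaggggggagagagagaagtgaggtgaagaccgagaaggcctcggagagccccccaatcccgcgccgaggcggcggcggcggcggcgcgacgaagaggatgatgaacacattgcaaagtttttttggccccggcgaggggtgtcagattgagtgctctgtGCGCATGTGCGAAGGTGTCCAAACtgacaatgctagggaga

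Motifs of blood transcription factors were counted in the same 300 bases on both strands. The GATA motif AGATAA was found at the start of Tek and at no other of the 9 starts, against 9.65% of all starts. The ETS motif AGGAAG was found at Fgd5 alone (34.4% of all starts), and the E-box CAGCTG at Procr alone (15.6%). The RUNX motif TGTGGT, present at 15.0% of all starts, and the PAR bZIP motif TTACGTAA of the family of Hlf, present at 0.136%, were found at none of the 9. No motif searched contains another, and a match describes the sequence only.

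Among the transcription and chromatin regulators, Mecom, Prdm16, Hlf and Hmga2, none had a peak at an end, while 36.2% of all protein-coding genes had one. Mecom, which spans 558.5 kb of chromosome 3 from 29951296 to 30509759, had a single peak in its body, at chr3:30453004-30453941. Its summit lay 56.5 kb downstream of the upstream start, and its signal value, read here as the authors' enrichment over background, was 2.57. Only 25.1% of the peaks away from protein-coding gene ends were weaker, and the q-value was 0.0604. The internal start, from which the shorter EVI1 form is made, was 440.1 kb from the nearest summit. The stretch without any peak that holds this start ran from 28806340 to 30453003. It was 1647 kb long, longer than 98.9% of the gaps between neighbouring peaks, whose median was 20.6 kb.

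The other peaks counted for Mecom lay at an end of its neighbour Mynn. They were chr3:30601436-30601837, with a signal value of 3.12, and chr3:30602226-30603775, with a signal value of 9.73 and 33.3 for −log10 q. Their summits lay 91.8 kb and 93.2 kb upstream of Mecom, 486 bp and 873 bp from an end of Mynn. The first was closer still, at 259 bp, to an end of the tRNA gene n-TVaac8. The second was the strongest of all 18 peaks, stronger than 97.4% of the list.

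Prdm16 (chromosome 4, 154316122 to 154637360) lay in a peak-free stretch of 716.4 kb, from 154161787 to 154878154. This was longer than 97.1% of the gaps in the list. On the side of its far end the nearest summit was 154.9 kb away, in a peak of signal value 4.65 beside Tprgl. On the side of its start the nearest summit was 241.2 kb from the gene.

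Hlf (chromosome 11, 90336535 to 90390917) had 1 peak within 100 kb, at chr11:90249635-90250109, 86.8 kb beyond its far end. That peak had a signal value of 2.72, and its summit lay 442 bp from an end of Mmd. The only peak counted for Hlf thus lay at an end of another gene. Upstream of Hlf the nearest summit was 247.8 kb away, and the peak-free stretch across the gene was 388.3 kb long.

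Hmga2 (chromosome 10, 120361268 to 120476469) had no peak at its ends but 2 in its body. The stronger, chr10:120364202-120366188, was 1987 bp wide, with 5.17 as its signal value and 9.80 as −log10 q. It was the strongest of the 9 peaks away from every protein-coding gene end, and stronger than 89.4% of all such peaks in the list. Its summit lay 3.32 kb inside the far end of the gene, 111.9 kb from the start, and 230 bp from an end of the lncRNA gene Gm40783. The weaker, chr10:120388700-120389180, had a signal value of 2.63 and a q-value of 0.0604. It lay 87.7 kb from the start and 708 bp from an end of the lncRNA gene 9230105E05Rik. Both Hmga2 peaks thus had an end of an annotated lncRNA gene within 1 kb of their summits.

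The receptor had no peak and its ligand had 1. Tek (chromosome 4, 94739086 to 94874976) lay in a peak-free stretch of 373.9 kb. The nearest summit beyond its far end was 103.9 kb away, just past the limit of 100 kb, in a peak of signal value 5.85 at Mysm1. Upstream, the nearest summit was 136.3 kb away at Plaa, with a signal value of 6.70.

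Angpt1 (chromosome 15, 42424667 to 42676977) had the strongest peak at an end of any of the 9 genes, chr15:42675211-42677785. Its signal value was 7.22 and its −log10 q 19.7, and it was 2575 bp wide. The summit lay 488 bp inside the gene's high-coordinate end, and 84.4% of the peaks at protein-coding gene ends were weaker. This was the single peak of Angpt1 in the 3 classes. The remainder of the gene lay in a peak-free stretch of 828.6 kb, from 41846633 to 42675210.

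Mmrn1 (chromosome 6, 60944317 to 60989378) had peaks in all 3 classes, at an end, in the body and outside. The peak over its start, chr6:60944192-60946324, reached 5.45 in signal value and 11.3 in −log10 q, with its summit 677 bp inside the gene. A second peak followed at chr6:60946491-60948477, with a signal value of 3.49 and its summit 3.17 kb after the start. Another, at chr6:60990490-60990900, lay 1.41 kb beyond the far end, and its q-value of 0.867 and signal value of 2.14 were the weakest of all 18. The last, at chr6:61067397-61068152, lay 78.7 kb beyond the far end with a signal value of 2.97. All 4 had Mmrn1 as the nearest protein-coding gene. Of the 3 counted as distal, that beyond the far end began 112 bp past the window and that in the body 1174 bp past it, so both would count as peaks at an end with a window of 2.5 kb. With peaks within 1 kb merged, Mmrn1 had no separate peak in the body.

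Fgd5 (chromosome 6, 91978827 to 92076005) had 4 peaks, all outside the gene (2 with peaks within 1 kb merged). A weak peak at chr6:91971628-91972404, with a signal value of 2.54 and a q-value of 0.0452, had its summit 7.02 kb upstream of the gene. The other 3 lay together at chr6:92090640-92091276, chr6:92091481-92091888 and chr6:92092447-92093157, between 15.1 kb and 16.6 kb beyond the far end, around an end of Nr2c2. Their signal values were 3.79, 4.56 and 4.74. The last was counted as away from every protein-coding gene end, although its edge lay only 1029 bp from the end of Nr2c2, 29 bp past the window. The weak upstream peak was thus the single distal peak of Fgd5 that lay nearer to it than to another gene.

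Procr (chromosome 2, 155751125 to 155755478) is the shortest of the 9 genes, at 4.35 kb. Its nearest peak, chr2:155696703-155697136, lay 54.2 kb upstream with a signal value of 3.18. This was its single peak away from every protein-coding gene end, 4.55 kb from an end of Trpc4ap. Of its 2 other peaks, chr2:155691332-155692233 (signal value 4.28) lay at an end of Trpc4ap and chr2:155818122-155819231 (signal value 6.98) at an end of BC029722.

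**Figure D3:**
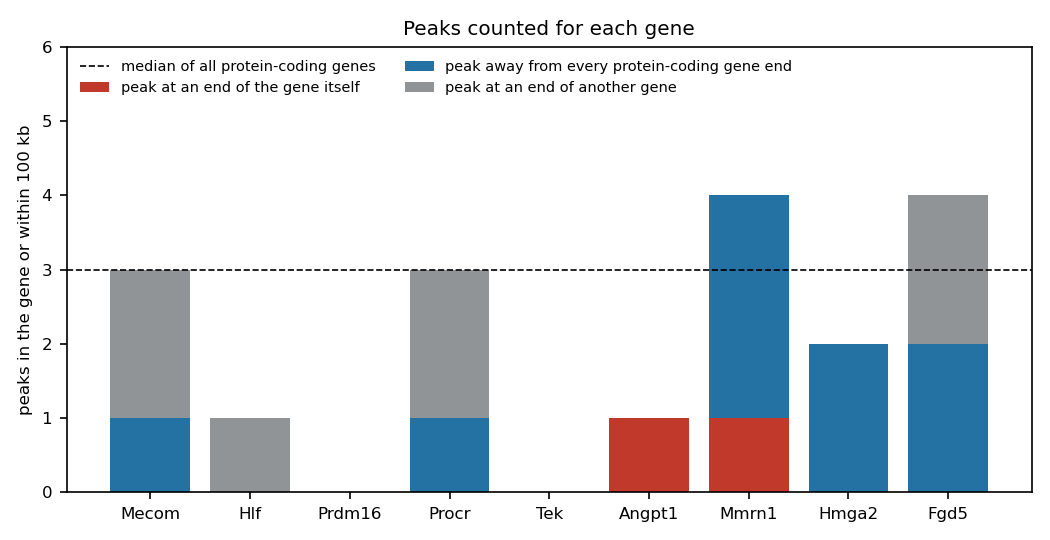
Bars give the number of peaks in each gene or within 100 kb of it, by where the peak lies; the dashed line is the median of 3 peaks over all protein-coding genes. Mmrn1 and Fgd5, with 4 peaks each, lie above the line, and Prdm16 and Tek have none.

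The distal peaks were spread around the median of such peaks in the list. The 9 peaks away from every protein-coding gene end had signal values from 2.14 to 5.17 with a median of 2.97, and the median of all 14609 such peaks was 2.94 (interquartile range 2.57 to 3.76). Those of Hmga2 (5.17) and Fgd5 (4.74) lay above that range, and those of Mmrn1 (2.14) and Fgd5 (2.54) below it. A q-value above 0.05 was attached to 3 of the 9, and to 29.1% of all such peaks. Those 3 were at Mecom, Mmrn1 and Hmga2. Among the 7 peaks at ends of other genes, signal values ran from 2.72 at Mmd to 9.73 at Mynn, and the median of all peaks at protein-coding gene ends was 4.25.

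**Figure D4:**
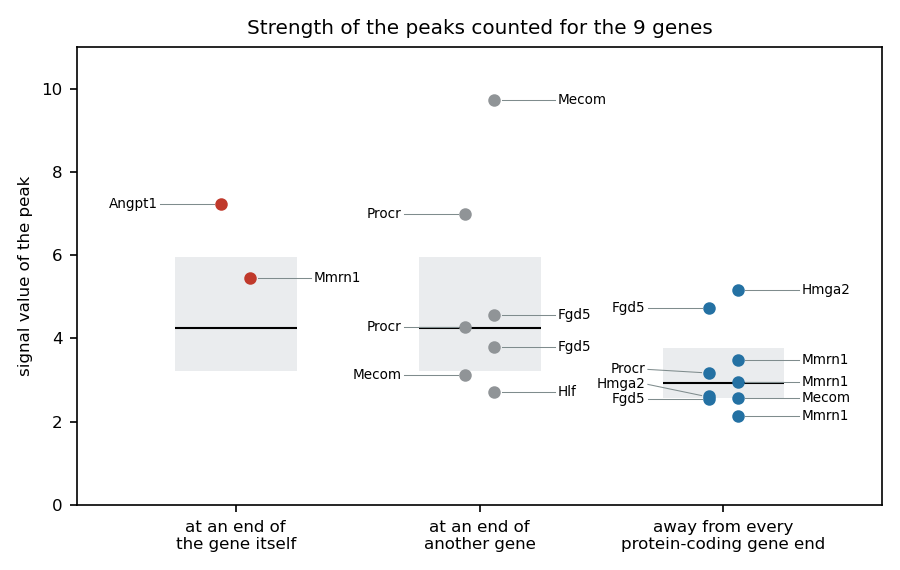
Points are the 18 peaks counted for the stem cell genes, by where they lie, with the authors' signal value on the y axis; grey boxes give the interquartile range and black lines the median of all peaks of the list at protein-coding gene ends (left and middle) or away from them (right). The peaks of Angpt1 (7.22) and Mmrn1 (5.45) at their own ends lie above the list's median of 4.25, and the distal peaks run from 2.14 to 5.17.

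In the stricter list of peaks with −log10 q of at least 5, Angpt1 and Mmrn1 kept their peaks at an end, and 24.0% of all protein-coding genes had one. Distal peaks were then left for 2 genes, Hmga2 and Fgd5, against 30.0% of all genes. The one left at Fgd5 was the peak beside Nr2c2. Mecom, Procr and Mmrn1 had no distal peak in that list.

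Other stem cell genes are given for comparison, from a list written with earlier results of these data known. Of 30 such genes, 12 carried a peak at an end, 4 had no peak at all, and the median number of peaks was 4.5. Over all protein-coding genes, the corresponding values were 36.2%, 23.1% and 3. The strongest peaks at an end were those of Meis1 (signal value 12.2), a homeobox factor, Runx1 (10.1), a master regulator of definitive blood, Txnip (9.67), a thioredoxin inhibitor, Cxcr4 (8.60), the marrow homing receptor, and Hoxa9 (7.44). The 4 without a peak were Hoxb5, Gata2, Mycn and Ndn. A further 12 genes had no peak at an end but at least 1 distal peak, as did Mecom, Procr, Hmga2 and Fgd5 and 6438 of the 21883 protein-coding genes. Among them the ETS factors Erg and Fli1 had the highest numbers of distal peaks, 23 and 20, against at most 3 for any of the 9 genes, the 3 being those of Mmrn1. In the gene body lay 20 of those of Erg and 17 of those of Fli1, where starts inside the gene did not count as ends.

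Relatives and partners of the 9 genes were counted in the same way. Of 19 genes, 7 (36.8%) carried a peak at an end, close to the 36.2% of all protein-coding genes. F2r and Angpt4, 2 of the others, had no peak, against 23.1% of all genes. Prdm2, of the same family as Mecom and Prdm16, had a signal value of 6.82 at its end, and Prdm1 had no peak at an end. Hmga1, the paralogue of Hmga2, had 6.79, and Dbp, a PAR bZIP factor like Hlf, had 6.49. Tef, the other PAR bZIP factor, had a weak peak of 2.32, while Nfil3, which binds the same sites, had none at an end. Fgd4, Fgd6 and Fgd3 had signal values of 4.01, 3.64 and 2.93, and Fgd1 and Fgd2 had no peak at an end. Neither Tie1, the partner of Tek, nor the second ligand Angpt2 had a peak at an end.

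**Figure D5:**
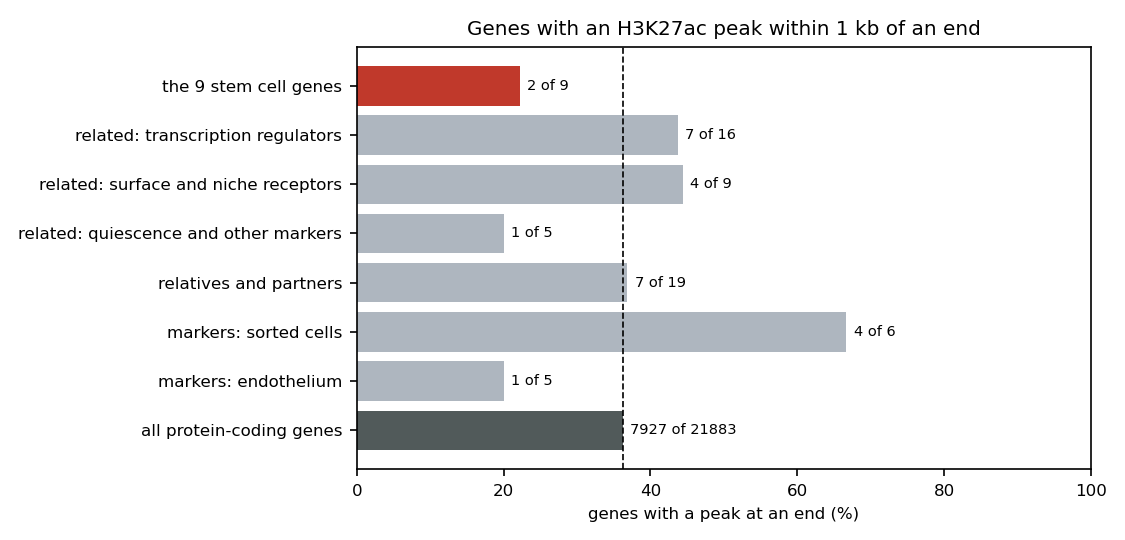
Bars give the percentage of genes in each list with a peak within 1 kb of an end, with the counts beside them; the dashed line is the share among all protein-coding genes (36.2%). The 9 stem cell genes (red) stand at 2 of 9, and the transcription regulators among the other stem cell genes at 7 of 16.

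The list was compared with markers of the sorted cells. Of 6 genes of the sort and of early progenitors, Ptprc (the gene of CD45), Kit, Flt3 and Cd48 had a peak at an end (36.2% of all protein-coding genes), while Ly6a (the gene of Sca1) and Cd34 had none there but had 16 and 3 distal peaks. The peak at Cd48 was weak, with 2.45 as its signal value and 0.799 as −log10 q. Of 5 endothelial genes, which matter here because several of the stem cell genes are shared with endothelium, 1 did, Kdr, with a signal value of 2.69. Cdh5, Emcn, Pecam1 and Tie1 had none at an end. Distal peaks were found for Kdr (8), Pecam1 (7) and Cdh5 (4) too, and for none of Emcn and Tie1; 56.0% of all protein-coding genes had at least 1.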

How the data were processed

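Per the submitters' processing notes, BWA and MACS2 were used and the build was mm10; versions, filters and the way the libraries were combined are not given in the sources used here. By its name, the list is an optimal set of overlapping peaks with input subtracted. The deposited list gives for each peak a score, a signal value read as the authors' fold enrichment ratio over background, and the authors' −log10 p-value and −log10 q-value. These values served only to describe, rank or filter peaks. Values of single libraries were not part of it, so only counts and levels are given.

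Peaks were placed against protein-coding genes of the RefSeq table for GRCm38.p6, the assembly that mm10 names, 1-based, with pandas 2.3.3 in Python 3.11.15. The table gives no exons or UTRs. Strand came from the RefSeq promoter table, in which 8 of the 9 genes have an entry. The assignment of classes was tested on simulated data. The genes, the comparison lists and the rules were chosen with earlier results of these data known. All 9 genes were named, the 5 strongest and the peak-free genes of the comparison lists, and nearest neighbours; Erg, Fli1 and a few relatives and markers were named after their values were seen. A list of lineage markers is not reported here. Alternatives covered the threshold on the list, the window at an end, the overlap rule, the reach and merging. The use of the RefSeq start alone was added after the data were seen.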

Additional observations from a re-analysis of the deposited data

How the results depend on the processing

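Of 181 values recomputed under 10 alternatives, 144 stayed within 1.5 times the reported value and 37 moved further. Some of the values that stayed could not have moved, such as the distance to the nearest peak under a changed reach. Angpt1 and Mmrn1 were the 2 genes with an end peak under each of the 9 alternatives that used both ends of a gene. Changes of reach and merging could not alter this number by construction, so only the other alternatives bear on it. The number was 1 (Mmrn1) when RefSeq starts alone were used, since Angpt1 has no entry. With −log10 q of at least 5, 1 gene had a peak in the body (Hmga2), 3 had a peak outside and 2 had a distal peak. With a signal value of at least 4, these numbers were 1, 3 and 2. Over all protein-coding genes, the shares in these lists were 7.33% and 6.85% for the body, 57.1% and 55.9% outside, and 30.0% and 28.2% for distal peaks. In both, Hlf lost its only peak and joined Prdm16 and Tek as the 3 genes without any, against 35.2% and 36.4% of all genes. Among the 19 relatives, 4 had a peak at an end in either list, against 24.0% and 23.2% of all genes. The genes without a peak numbered 4 with a reach of 50 kb (Hlf, Prdm16, Procr and Tek; 31.4% of all genes) and 0 with 200 kb (16.1% of all genes), while peaks outside the gene were found for 2 genes with 50 kb (57.6% of all genes) and 9 with 200 kb (81.9%). Fgd5 had 2 peaks and Mmrn1 had 1 in each of these 2 stricter lists, in place of 4 each. With peaks within 1 kb merged, Fgd5 had 2 peaks and Mmrn1 had 3. Merging left 2 genes with a peak in the body, Mecom and Hmga2, against 15.2% of all genes. Of the 81 counts for single genes, 15 moved lower and 5 higher. These moves follow from the alternatives' construction, which leaves fewer peaks or changes the reach. No paired analysis was possible because replicate libraries have no values of their own here, and for the same reason no library could be left out.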

Other observations

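Peaks between 100 kb and 200 kb from the 9 genes were not part of the comparison. The nearest peak outside Angpt1, chr15:42790172-42792520, was 2349 bp wide with a signal value of 3.79. Angpt1, 115.0 kb away, was its nearest protein-coding gene, and an end of the lncRNA gene Gm41314 lay 2.66 kb from its summit. Around Tek, the strongest peak lay at Jun, 177.0 kb beyond the far end of Tek, with a signal value of 12.5. Around Hmga2, 3 peaks at ends of Irak3, Tmbim4 and Llph had signal values of 5.91, 5.91 and 5.02. A distal peak at chr6:61106570-61107008, with a signal value of 3.03, lay 117.4 kb beyond the far end of Mmrn1 and 73.2 kb from Ccser1. A distal peak with a signal value of 3.58 lay just past the limit, 100.5 kb upstream of Fgd5, with Ccdc174, 21.5 kb away, as its nearest protein-coding gene.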
